A study of Mus musculus with 2 samples.

Results

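Adrenal glands of B6CASTF1/J F1 hybrid females, 4 days old, were profiled by DNase-seq in 2 libraries, labelled biological replicates 2 and 1. The genes described here are the protein-coding genes on chromosomes 1 to 19 that had a peak less than or equal to 1 kb from a transcription start site (TSS) of the annotation in replicate 2 and none in replicate 1. They were chosen by these peak calls, from the longer of the 2 peak lists of each library, and a gene is called open in a library when it had such a peak. Of 20807 genes, 1030 were open in replicate 2 alone, 174 in replicate 1 alone, 12937 in both and 6666 in neither. Both libraries carry the same strain, sex, age and tissue labels, with no second condition, and the alleles of the F1 hybrid were not separated. The labels mention 3 females for each sample and give both the same donor identifier, and no label read here states whether animals were pooled. A count of 1 library on either side allows no test, and every difference below describes these 2 libraries only.

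DNase I cuts DNA where nucleosomes have been displaced, and clustered cuts therefore point to promoters and enhancers that proteins can reach. Mammalian promoters fall into broad kinds. Those in CpG islands, where the CG dinucleotide has been spared from loss by methylation, are mostly open in every tissue and include housekeeping genes and, under Polycomb repression, many developmental regulators. Promoters poor in CpG tend to open only where the gene is used, as those of steroid enzymes in the adrenal cortex, and the gland as a whole mixes cortex, medulla, vessels and capsule, so that a promoter open in a few cells gives a weak signal in bulk tissue. In such tissue, fewer cells with an open site and less accessible sites in each cell cannot be told apart.

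Promoter sequences of 7 members are printed to show what CpG-rich and CpG-poor promoters look like, and they were picked by that class or by list. Of the members, 706 matched an entry of the RefSeq promoter table (build GRCm38.p6), and each line below gives 280 bases of it, from 250 before the RefSeq start to 30 from the start on, 5′ to 3′ on the gene's strand, with every CG dinucleotide in capitals. The first 3 genes had the highest signals among CpG-rich members with an entry and a peak over the 5′-most TSS, the next 2 likewise among CpG-poor members (the third, Gm44805, shares the peak of Apoc4), and the last 2 are members of the steroid list.
Ppp1r14b: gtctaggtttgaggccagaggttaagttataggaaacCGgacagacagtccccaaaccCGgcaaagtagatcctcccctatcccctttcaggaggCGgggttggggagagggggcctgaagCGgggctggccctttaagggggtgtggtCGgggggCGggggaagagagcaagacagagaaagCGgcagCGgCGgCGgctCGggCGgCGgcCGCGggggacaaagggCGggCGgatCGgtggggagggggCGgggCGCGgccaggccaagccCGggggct
Lmnb2: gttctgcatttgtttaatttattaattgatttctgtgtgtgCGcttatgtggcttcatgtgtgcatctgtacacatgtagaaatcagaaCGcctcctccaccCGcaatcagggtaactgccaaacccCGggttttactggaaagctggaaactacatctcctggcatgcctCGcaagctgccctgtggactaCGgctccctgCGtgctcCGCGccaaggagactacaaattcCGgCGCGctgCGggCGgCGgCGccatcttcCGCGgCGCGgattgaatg
Cers1: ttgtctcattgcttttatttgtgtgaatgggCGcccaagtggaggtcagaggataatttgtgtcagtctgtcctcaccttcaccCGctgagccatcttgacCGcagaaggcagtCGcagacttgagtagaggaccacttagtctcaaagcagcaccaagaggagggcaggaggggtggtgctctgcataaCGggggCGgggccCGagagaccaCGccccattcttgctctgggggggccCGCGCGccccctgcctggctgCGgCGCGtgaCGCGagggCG
Apoc4: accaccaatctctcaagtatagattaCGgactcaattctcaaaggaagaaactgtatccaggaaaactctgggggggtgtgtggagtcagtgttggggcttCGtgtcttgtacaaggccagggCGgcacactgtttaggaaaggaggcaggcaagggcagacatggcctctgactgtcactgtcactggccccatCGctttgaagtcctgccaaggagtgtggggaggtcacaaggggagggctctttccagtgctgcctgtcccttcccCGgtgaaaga
Prss41: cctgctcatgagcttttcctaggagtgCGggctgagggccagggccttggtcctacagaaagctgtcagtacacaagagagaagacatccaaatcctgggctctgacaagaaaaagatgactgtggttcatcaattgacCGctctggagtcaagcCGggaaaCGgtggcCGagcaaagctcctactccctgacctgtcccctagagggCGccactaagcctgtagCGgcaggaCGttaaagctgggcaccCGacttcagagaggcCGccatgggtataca
Apoe: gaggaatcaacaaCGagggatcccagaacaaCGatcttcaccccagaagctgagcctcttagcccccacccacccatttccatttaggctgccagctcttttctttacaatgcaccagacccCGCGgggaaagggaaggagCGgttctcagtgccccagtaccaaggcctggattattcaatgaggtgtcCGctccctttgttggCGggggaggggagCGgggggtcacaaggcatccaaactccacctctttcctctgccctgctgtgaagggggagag
Hsd3b6: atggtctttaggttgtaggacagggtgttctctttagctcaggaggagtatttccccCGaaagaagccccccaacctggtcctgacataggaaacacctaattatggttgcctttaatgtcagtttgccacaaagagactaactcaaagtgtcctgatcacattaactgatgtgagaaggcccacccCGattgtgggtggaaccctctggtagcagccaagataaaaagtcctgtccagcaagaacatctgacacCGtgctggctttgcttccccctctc
These windows lie at chr19:6974798-6975077 (+) for Ppp1r14b, chr10:80918216-80918495 (-) for Lmnb2, chr8:70315525-70315804 (+) for Cers1, chr7:19681431-19681710 (-) for Apoc4, chr17:23844127-23844406 (-) for Prss41, chr7:19699159-19699438 (-) for Apoe and chr3:98814414-98814693 (-) for Hsd3b6. CG dinucleotides numbered 22 for Ppp1r14b, 20 for Lmnb2 and 17 for Cers1, against 5 for Apoc4, 10 for Prss41, 8 for Apoe and 3 for Hsd3b6, where the median over 32851 RefSeq windows of this length was 6 (quartiles 2 and 19). The replicate 2 peak ran from 207 to 8 bases before the RefSeq start at Ppp1r14b and began 114 bases before it at Lmnb2, 131 at Cers1, 140 at Apoc4, 144 at Prss41 and 37 at Apoe. At Hsd3b6 the peak lay just inside the gene, from 3 to 269 bases after the start. A GC box (GGGCGGG, either strand), the string bound by SP and KLF factors, was found in the windows of Ppp1r14b and Cers1 and in 25% of all such windows. Star, Cyp17a1, Cyp21a1 and Hoxb7 are named only.

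Genes open in replicate 2 alone made up 4.95% of all genes and 7.37% of the 13967 genes with a TSS peak in replicate 2. In the other direction, 0.836% of all genes, and 1.33% of the 13111 genes with a TSS peak in replicate 1, were open in replicate 1 alone. The direction of this difference moved with the number of peaks that the lists hold, 87387 in replicate 2 and 46031 in replicate 1. With as many replicate 2 peaks as replicate 1 has, taken by signal (0.932 or more), 413 genes were open in replicate 2 alone and 727 in replicate 1 alone. This setting drops the weaker replicate 2 peaks and no replicate 1 peak. By construction it can only lower the first count and raise the second. The labels name 2 sequencing instruments for replicate 2 and none for replicate 1, and for both, read depth was not given in the sources used here. Peaks were called per library, and the lowest signals listed were 0.0616 in replicate 2 and 0.0597 in replicate 1. What part the number of peaks or the depth plays in the membership was not tested.

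The members had weak peaks. The signal of the strongest TSS peak, column 7 of the peak lists and the authors' own value for each peak, had a median of 0.827 in replicate 2 (quartiles 0.572 and 1.15, range 0.106 to 3.57) over the members. Genes open in both had a median of 4.43 in replicate 2 (quartiles 2.56 and 6.51), and 2.96% of them lay at or below the members' median. The ranges overlapped, since 38.2% of the genes open in both had a replicate 2 signal at or below that of the highest member. Genes open in replicate 1 alone stood in the same relation to replicate 1, with a median replicate 1 signal of 0.524 against 2.15 for genes open in both. The peak calls that chose the members come from the same files as these signals, so the values are descriptive.

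**Figure D1:**
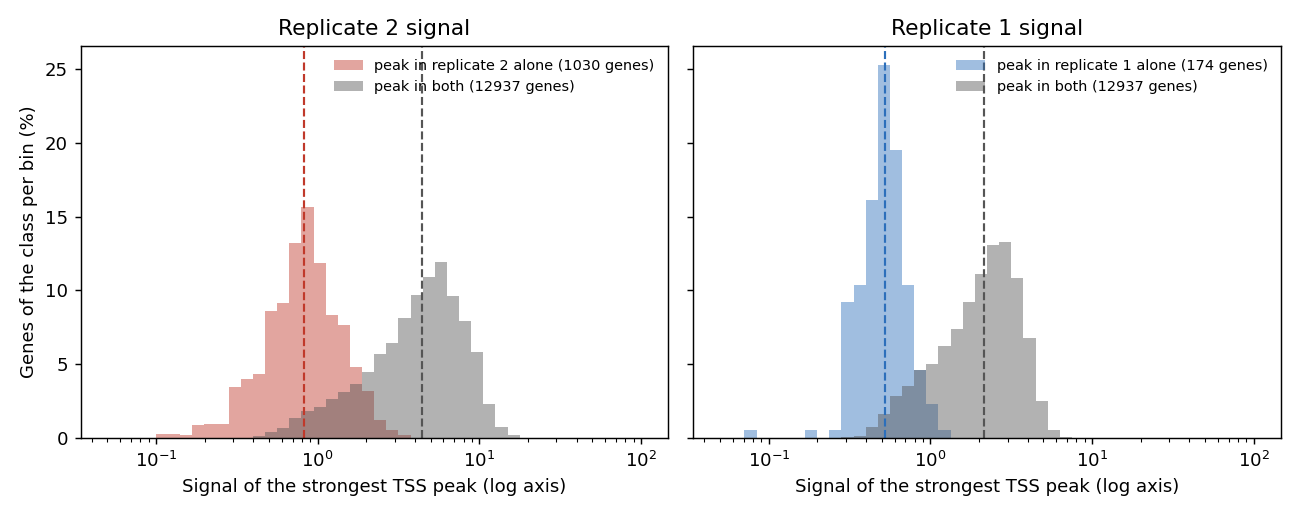
Distribution of the signal of the strongest TSS peak (log axis) as the percentage of genes of each class per bin, in replicate 2 (left) and replicate 1 (right), with dashed lines at the class medians. The 1030 genes open in replicate 2 alone centre on 0.827 and the 12937 genes open in both on 4.43 in replicate 2. In replicate 1 the 174 genes open there alone centre on 0.524 and the genes open in both on 2.15.

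Other measures of these peaks were lower as well. The strongest peak of a member had a median width of 142 bp, against 220 bp in genes open in both. At least 1 footprint, a short stretch of protected bases, lay in the peaks of 749 members (72.7%), against 97.7% of genes open in both, with a mean of 1.22 and 3.49 footprints per peak. A single peak in the TSS windows was found for 753 members (73.1%), against 31.6% of genes open in both. The shorter replicate 2 list held a TSS peak for 316 members (30.7%), against 95.4% of genes open in both. The shorter replicate 1 list held 18 of the 174 genes open in replicate 1 alone (10.3%).

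Most members had no listed position in replicate 1. Positions with an adjusted p below 0.05 in the authors' list of local cut rates fell in the TSS windows of 137 members in replicate 1 (13.3%), against 84 of 6666 genes open in neither (1.26%), and covered a median of 19 bp. The adjusted p was under 0.001 at 3 of these members. A replicate 1 footprint lay in the windows of 0 members and of 0 genes open in neither, so this count adds nothing to the lack of a peak. The nearest replicate 1 peak lay at a median of 15777 bp from the member's strongest peak, within 10 kb for 370 members (35.9%) and within 100 kb for 913 (88.6%). Outside the TSS windows, 270 members (26.2%) had a replicate 1 peak in the gene body, where 32.5% of genes open in both and 12.9% of genes open in neither had one.

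At the edge of the rule, the members with the most listed bases in replicate 1 were Oxtr, the oxytocin receptor, with 120 bp, and Nr2f2, a nuclear receptor of vessels and mesenchyme, with 88 bp. At 6 members the strongest replicate 2 peak overlapped a replicate 1 peak that stopped short of the window: Fam178b, Zfhx4, Apoa2, Lect2, Pcsk1 and Nkx2-4. Just outside the rule, the lowest replicate 1 signals among genes open in both were 0.111 for Zbp1, a sensor of nucleic acids, and 0.205 for the gene model Gm8108. Members farthest from any replicate 1 peak were Scgb1b11 (1013520 bp) and Scgb2b11 (1001560 bp), secretoglobins, and the gene models Gm14305 (789541 bp) and Gm14295 (699328 bp). Their signals were 0.141, 0.106, 0.334 and 0.237 in replicate 2, and the members with the lowest signals were Gm3298, Scgb2b11 and the vomeronasal receptor Vmn1r151 with 0.106 each and Rac2, a GTPase of blood cells, with 0.132. Several of these belong to clusters of near-identical copies, where reads can be placed on the wrong copy, and their values are uncertain.

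Members with the highest signals were of mixed function. Hoxb7, a homeobox factor of axial patterning, had 3.57 in replicate 2 and no peak in replicate 1, and the next were Pitpnm3, of the phosphatidylinositol transfer protein family, with 3.17 and Resp18, a protein of endocrine secretory granules, with 3.06. Ppp1r14b, an inhibitor of protein phosphatase 1, had 2.96 and Perm1, a muscle regulator of mitochondrial genes, had 2.89. Apoc4, an apolipoprotein made mainly in liver, and the gene model Gm44805 shared a peak of 2.81. Star, which carries cholesterol into the mitochondrion as the first step of steroid synthesis, had 2.73. Prss41, a serine protease, had 2.54, Hgfac, the liver-made protease that activates hepatocyte growth factor, 2.52, the gene model Gm14410 2.51 and Theg, a testis gene, 2.5. All 12 were also in the shorter replicate 2 list. Of these 12, Star and Hgfac alone had listed replicate 1 positions in their windows (lowest adjusted p 0.0437 and 0.0189), and the peaks of Pitpnm3, Star, Hgfac and Theg lay within 1 kb of an internal TSS and not of the 5′-most one.

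Genes open in replicate 1 alone offer the reverse case. The highest replicate 1 signals were 1.3 for Celf5, an RNA-binding protein, 1.02 for Ccn5, a matrix protein, 0.981 for Khdc3, a protein of oocytes and early embryos, and the gene model Gm20509 that shares its peak, 0.964 for the histone gene Hist1h2ab and 0.887 for Cfap73, a cilium protein. None of these 6 had a replicate 2 peak in its windows, though the peak shared by Khdc3 and Gm20509 overlapped a replicate 2 peak outside them. Replicate 2 positions below 0.05 were listed for 35 of the 174 genes (20.1%).

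Within the members, CpG content was low. Observed over expected CpG was read in the 500 bp to either side of the TSS nearest the peak. Its median was 0.379 in members (quartiles 0.236 and 0.582), 0.521 in genes open in replicate 1 alone and 0.743 in genes open in both. Genes open in neither have no peak and were read at their 5′-most TSS, with a median of 0.169. At that TSS the medians of the other classes were 0.359, 0.481 and 0.724, in the same order. By a ratio of at least 0.6 with at least 50% GC, 221 members were CpG-rich (21.5%, exact binomial 95% interval 19 to 24.1%, counting error only), against 35.1% of genes open in replicate 1 alone, 75.1% of genes open in both and 3.78% of genes open in neither. By a ratio under 0.4, 545 members were CpG-poor (52.9%), against 32.8%, 7.78% and 88.2% in the same order. The median of the members lay between those of genes open in neither and in both, and the interquartile range of the members did not reach that of genes open in both (0.614 to 0.850).

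**Figure D2:**
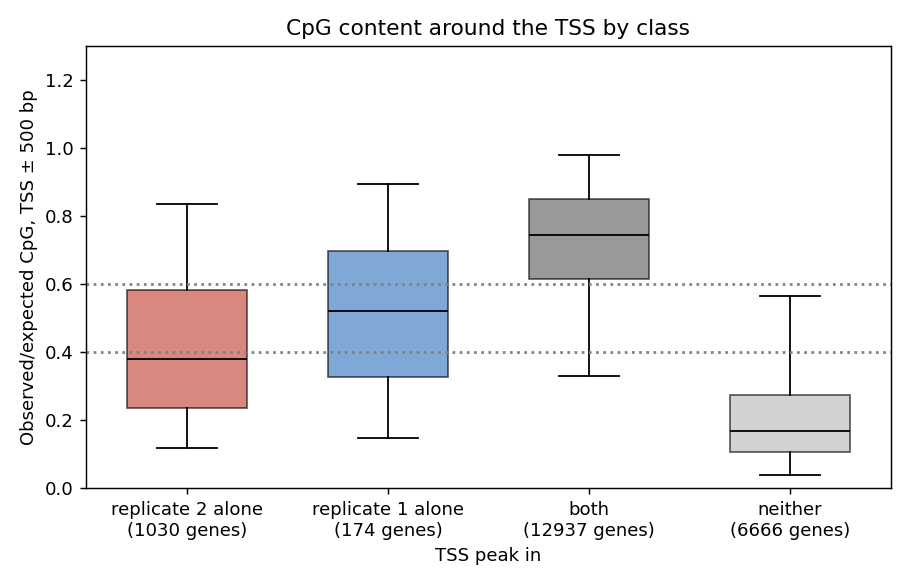
Observed over expected CpG within 500 bp of the TSS for genes with a TSS peak in replicate 2 alone, replicate 1 alone, both and neither (box, quartiles with the median as a line; whiskers, 5th to 95th percentiles; dotted lines, the limits of 0.4 and 0.6 used for CpG-poor and CpG-rich). The TSS is the one nearest the peak, or the 5′-most one for genes open in neither. Medians were 0.379, 0.521, 0.743 and 0.169, and the box of the first group overlaps those of genes open in replicate 1 alone and in neither, but not that of genes open in both.

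Low signal and low CpG content go together, so the share of genes missed in replicate 1 was also taken at like signal in replicate 2. Of genes with a replicate 2 signal of up to 0.5, 84.7% were members, and of those over 3, 0.0334% (3 of 8989). In between, at a signal over 1 and up to 1.5, 95 of 249 CpG-poor genes were members (38.2%, exact binomial 95% interval 32.1 to 44.5%), against 61 of 490 CpG-rich genes (12.4%, 9.66 to 15.7%). The median replicate 2 signals of these sets were 1.24 and 1.25. At a signal over 1.5 and up to 2, the shares were 22.8% for CpG-poor and 3.04% for CpG-rich genes, and over 2 and up to 3 they were 8.61% and 0.483%. In each of the bins up to 3 the CpG-poor share was the higher, and above 3 both rested on 1 member each. Genes in a bin share 1 pair of libraries, and the intervals cover counting error only.

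**Figure D3:**
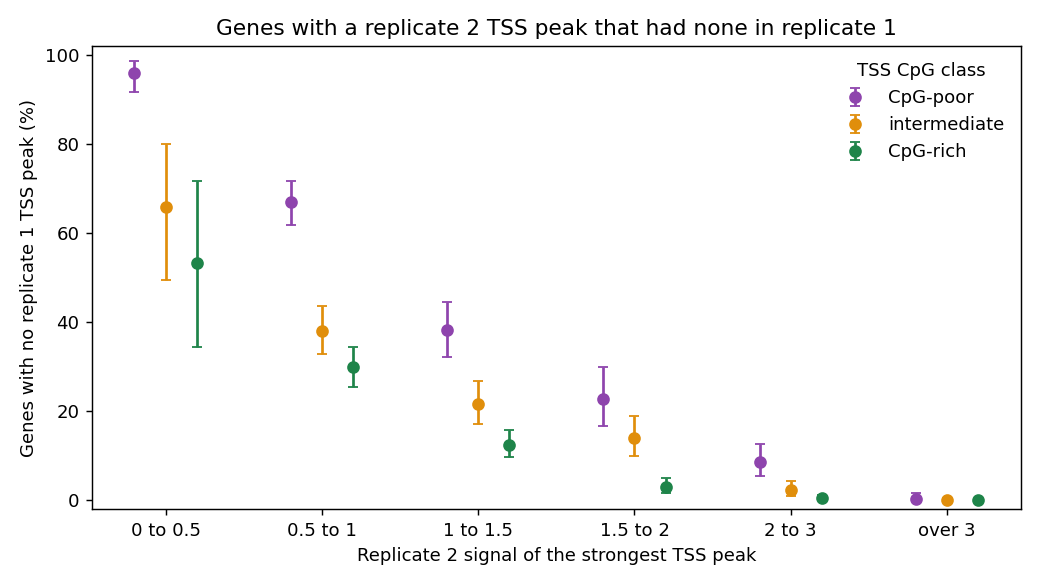
Percentage of genes with a replicate 2 TSS peak that had no replicate 1 TSS peak, by bin of replicate 2 signal and by CpG class of the TSS (points; bars, exact binomial 95% intervals). The share drops from 96.0% to 0.282% over the bins for CpG-poor genes and from 53.3% to 0.0134% for CpG-rich genes.

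The genes open in both of the same bins show how the libraries compare where both had a peak. At a replicate 2 signal over 1 and up to 1.5, their median replicate 1 signal was 0.759 for CpG-poor genes and 0.836 for CpG-rich genes. Over 2 and up to 3 it was 1.13 for CpG-poor and 1.43 for CpG-rich genes. Genes whose replicate 1 peak was missed are left out of these medians by construction. In the other direction, of genes with a replicate 1 signal of up to 0.5, 35 of 88 CpG-poor genes (39.8%) and 18 of 83 CpG-rich genes (21.7%) had no replicate 2 peak, and at a signal over 0.5 and up to 1 the shares were 4.93% and 4.66%.

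Peaks of members lay farther from the TSS. The strongest peak covered a TSS in 340 members (33.0%), 36.8% of genes open in replicate 1 alone and 72.3% of genes open in both, and its centre was at a median of 162.5, 117 and 56 bp from the nearest TSS. Centres over 500 bp upstream made up 11.5% in members and 3.71% in genes open in both, and those over 500 bp downstream 14.0% and 3.53%. The 5′ end of the gene held the peak in 782 members (75.9%), against 88.2% of genes open in both. At like signal the order was the same in each bin: over 1 and up to 1.5, 16.2% of genes whose peak covered a TSS and 27.8% of the others were members. Members had a median of 3 annotated TSSs, as had genes open in replicate 1 alone and all genes, against 5 in genes open in both. They shared their peak with another coding gene in 62 cases (6.02%), against 4.60% of genes open in replicate 1 alone and 20.2% of genes open in both. In 21 of the 62 cases another gene at the peak was open in both. The 1030 members rested on 1009 distinct peaks.

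In all, 14 short sequence strings were counted on both strands in 200 bp around the centre of the strongest peak. None of the strings named here contains another. The extended monomer site of SF-1 (AAGGTCA), the nuclear receptor that drives steroid genes, was found in 38 members (3.69%), 2.87% of genes open in replicate 1 alone, 1.32% of genes open in both and 2.43% of 200 bp windows at the 5′-most TSS of all genes. Among CpG-poor genes the shares were 5.50% of members and 3.88% of genes open in both, and among CpG-rich genes 0.905% and 0.998%. The TATA box string (TATAAA) was found in 5.44% of members, 2.30% of genes open in replicate 1 alone, 2.26% of genes open in both and 8.16% of all TSS windows.

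Strings of broadly acting promoter factors went the other way, as did those of the cAMP response element, CCAAT box, E-box, YY1 and RFX. The ETS string (CCGGAAG) was found in 3.11% of members, 3.45% of genes open in replicate 1 alone, 16.0% of genes open in both and 9.78% of all TSS windows, and the NRF1 string (TGCGCANGC) in 1.46%, 2.30%, 8.73% and 4.47%. The GC box was found in 19.2%, 22.4%, 46.8% and 28.5%. CpG content differs between the classes. Within the CpG-rich class the ETS string was in 3.17% of members and 17.9% of genes open in both, the NRF1 string in 0.452% and 10.2%, and the GC box in 32.6% and 51.6%. Within the CpG-poor class the shares were closer, with 2.75% and 4.77% for ETS, 0.917% and 1.09% for NRF1, and 11.4% and 18.9% for the GC box. The windows follow the peak, which covered a TSS in 33.0% of members and 72.3% of genes open in both. A match is a run of letters and not a bound site.

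Genes of the adrenal gland itself were mostly open in both libraries, as were 62.2% of all genes. The share open in both was 64.3% for steroid synthesis and cholesterol supply, near that of all genes. It was 71.0% for cortex identity and zonation and 77.4% for medulla chromaffin cells. The files hold no other tissue, so whether a promoter is specific to the adrenal gland could be read only from lists of genes with known roles. In the list of 28 genes of steroid synthesis and cholesterol supply, 5 were open in replicate 2 alone (17.9%, against 4.95% of all genes), 1 in replicate 1 alone, 18 in both and 4 in neither. Star had a signal of 2.73 in replicate 2, at chr8:25808341-25808600 (mm10), centred 3 bp before an annotated TSS that is not the 5′-most one. It had 4 replicate 2 peaks in its TSS windows and 0 replicate 1 peaks in the gene. Cyp17a1, the hydroxylase and lyase on the way to androgens, had 1.56 at chr19:46670794-46670960, away from its 5′ end, and Apoe, the apolipoprotein of lipid particles, had 1.42. Cyp21a1, the hydroxylase needed for corticosterone and aldosterone, had 1.12 with 5 peaks in its windows, and it lies beside a near-identical pseudogene copy, so that its reads may be shared. Hsd3b6, a hydroxysteroid dehydrogenase of the mouse outer cortex, had 0.493.

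None of these 5 had a replicate 1 peak, and 4 of them were CpG-poor and 0 CpG-rich. Star was the single one with a listed replicate 1 position. With equal numbers of peaks 4 of the 5 were still open in replicate 2 alone, all but Hsd3b6, and 3 genes of the list were open in replicate 1 alone. Of the other members of the pathway, Cyp11a1, which cuts the side chain of cholesterol, was open in both at 3.54 in replicate 2 and 1.25 in replicate 1 from a CpG-poor promoter. Cyp11b2, the aldosterone synthase, was the gene open in replicate 1 alone, with 0.298. Cyp11b1, the synthase of corticosterone, and Hsd3b1 had no TSS peak in either library.

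**Figure D4:**
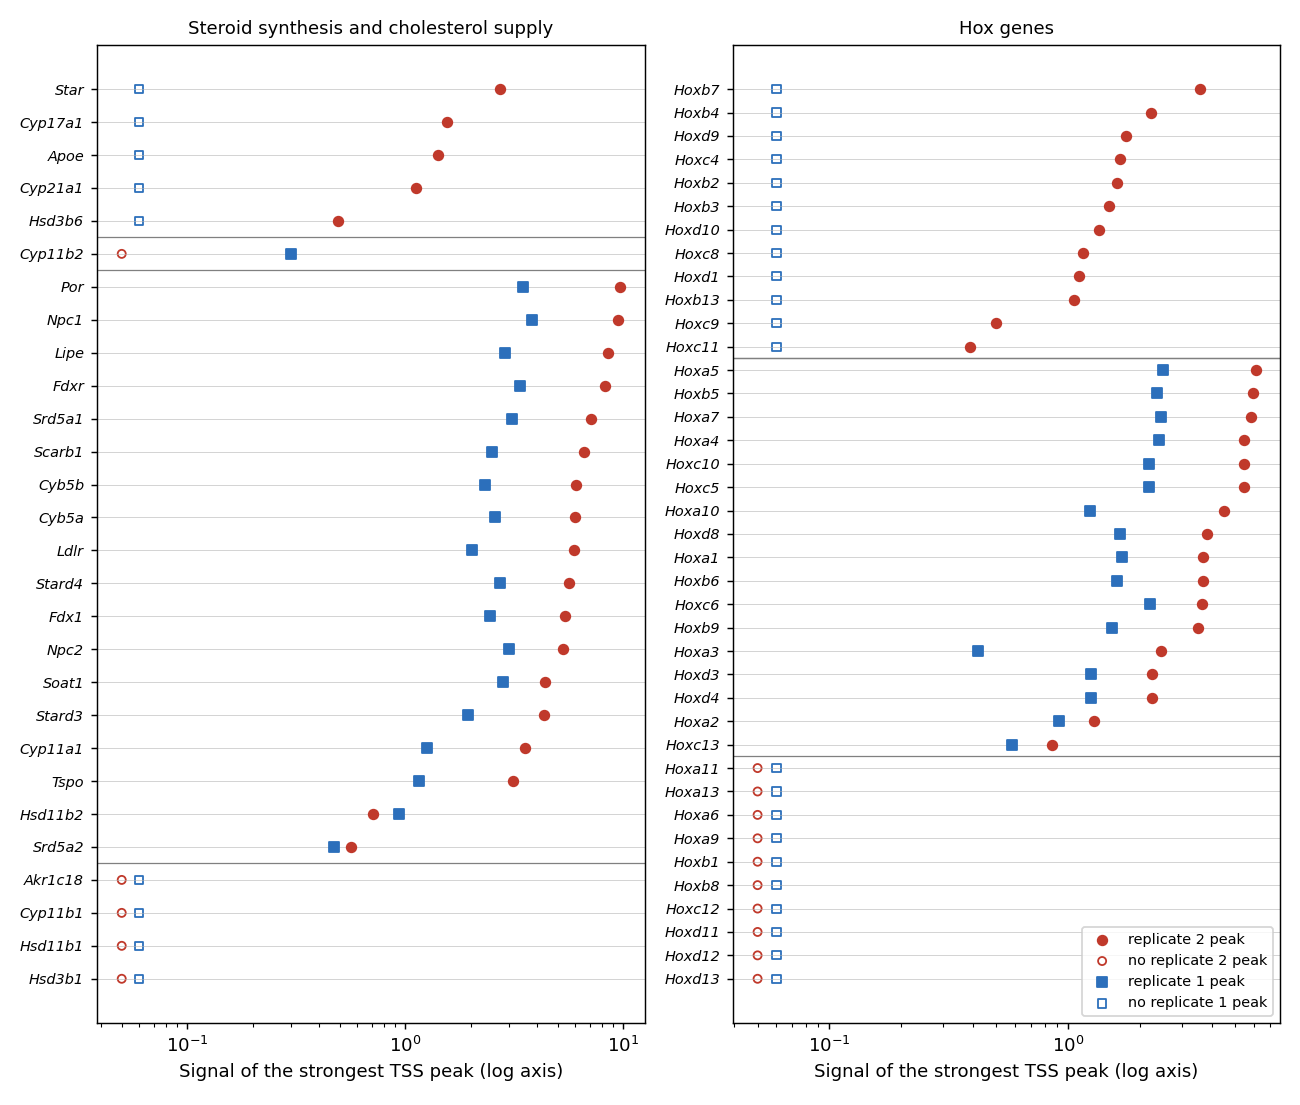
Signal of the strongest TSS peak (log axis) in replicate 2 (circles) and replicate 1 (squares) for each gene of the steroid list (left) and of the Hox family (right), with open symbols at the left edge where a library had no TSS peak. Grey lines part genes open in replicate 2 alone (top), replicate 1 alone, both and neither. The 5 steroid members span 0.493 to 2.73 and the 12 Hox members 0.387 to 3.57 in replicate 2.

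The other adrenal lists held few members. Of 31 genes of cortex identity and zonation, 2 were open in replicate 2 alone (6.45%), 3 in replicate 1 alone, 22 in both and 4 in neither. The members were Rspo1, an enhancer of Wnt signals, with 0.959 in replicate 2 and Wt1, a zinc finger factor of the adrenal and gonadal primordium, with 0.871. Both had no replicate 1 peak, and 7 bp at Rspo1 were listed at an adjusted p of 0.0366. Nr5a1, the gene of SF-1, was open in both at 5.07 in replicate 2 and 1.77 in replicate 1. Of 31 genes of medulla chromaffin cells, 2 were open in replicate 2 alone (6.45%), 1 in replicate 1 alone, 24 in both and 4 in neither. Pcsk1, a convertase of prohormones, had 0.976 at the edge of its window, over a replicate 1 peak outside it, and Slc18a2, which loads amines into vesicles, had 0.756. These shares are near the 4.95% of all genes. At equal peak numbers, 1 cortex gene was open in replicate 2 alone and 4 in replicate 1 alone, and 1 and 6 chromaffin genes were, in that order. Defining markers with no TSS peak in either library included Mc2r, the receptor for corticotropin in the cortex, and Th, Dbh and Pnmt, the enzymes of catecholamine synthesis in the medulla, while Chga, a granule protein of chromaffin cells, was open in both at 4.45 in replicate 2 and 1.48 in replicate 1.

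Lists of other cell types of the gland and of other organs held few genes each, and their shares stand beside 4.95% of all genes. Of 16 endothelial genes, 3 were open in replicate 2 alone (18.8%): Cdh5, the cadherin of vessel junctions (0.915), the receptor kinase Tie1 (0.589) and the co-receptor Eng (0.510). Of 12 genes of capsule and fibroblasts, 3 were (25%): the smooth muscle gene Tagln (1.32), the growth factor receptor Pdgfrb (0.906) and Thy1 (0.704). Of 13 kidney genes, 2 were (15.4%), with Nphs1, a protein of the podocyte filter, highest (1.21). Of 12 liver genes, 2 were (16.7%), the apolipoproteins Apoc3 (0.369) and Apoa1 (0.299). Of 15 neuronal genes, 3 were (20%): Gad1 (1.13), Tubb3 (1.07) and Stmn2 (0.440). Of 12 testis germ cell genes, 2 were (16.7%). The share of the steroid list, 17.9%, lay within the range of these lists of other organs. Leukocyte, skeletal muscle, gonad, photoreceptor and housekeeping lists held 0 members, and all 12 housekeeping genes were open in both. At equal peak numbers, the counts in replicate 2 alone and replicate 1 alone were 0 and 1 for endothelium and 1 and 2 for capsule and fibroblasts. They were 1 and 2 for kidney, 0 and 0 for liver and for testis germ cells, and 2 and 3 for neurons, where all genes had 413 and 727. That setting drops replicate 2 peaks under 0.932 and no replicate 1 peak, so members with weaker peaks leave it by construction. With 8 to 16 genes a list, each share has a wide counting interval, as 4.05 to 45.6% for the endothelial list.

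**Figure D5:**
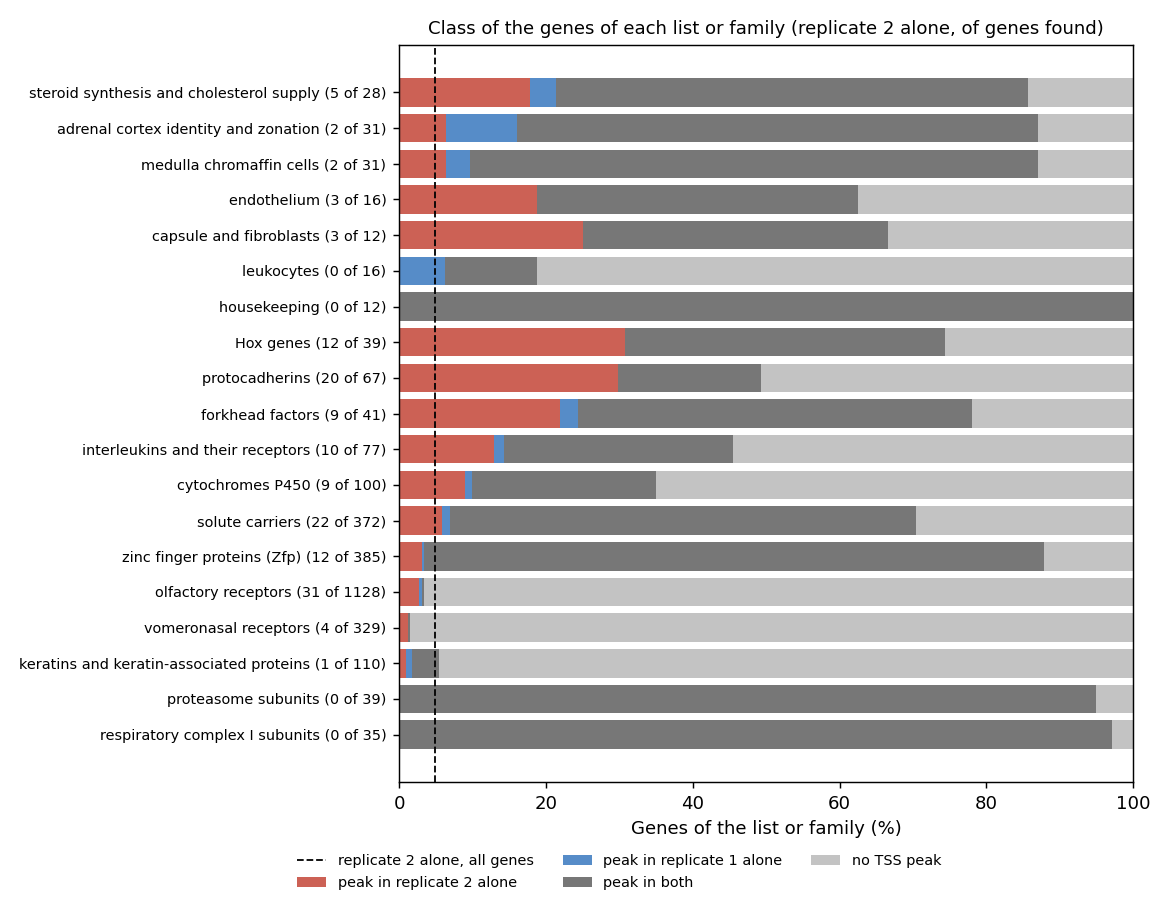
Percentage of the genes of each list or family that were open in replicate 2 alone, replicate 1 alone, both and neither (stacked bars), with the share of replicate 2 alone over all genes (4.95%) as a dashed line and the count of members beside each name. The 19 lists and families drawn leave out aquaporins (4 of 11), the families added after values were seen and other lists and families. Among those drawn, Hox genes (12 of 39) and protocadherins (20 of 67) have the longest bars for replicate 2 alone. The leukocyte, complex I, proteasome and housekeeping genes have none.

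Of 39 Hox genes, the clustered homeobox factors of axial identity, 12 were open in replicate 2 alone (30.8%, against 4.95% of all genes), 0 in replicate 1 alone, 17 in both and 10 in neither. After Hoxb7 the highest signals were 2.23 for Hoxb4, 1.75 for Hoxd9 and 1.65 for Hoxc4, and 7 of the 12 were CpG-rich. The clusters differed, with 5 of 10 genes of Hoxb, 4 of 9 of Hoxc, 3 of 9 of Hoxd and 0 of 11 of Hoxa among the members. Hox genes open in both, such as Hoxa5 with 6.11 in replicate 2 and 2.51 in replicate 1, included 7 of Hoxa, 3 of Hoxb, 4 of Hoxc and 3 of Hoxd. With equal numbers of peaks 10 Hox genes were open in replicate 2 alone and 1 in replicate 1 alone. Of the 12 members, Hoxd9 alone had a listed replicate 1 position (6 bp, adjusted p 0.0424).

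Other families of developmental factors and signals held 3 to 34 members each, to be read against the 4.95% of all genes. Forkhead factors had 9 of 41 (22.0%), led by Foxs1 (2.02), Foxa1 (1.28), Foxd3 (0.924) and Foxd4 (0.783). Sox factors had 3 of 18, Sox2 (2.19), Sox18 (1.35) and Sox21 (0.871), and T-box factors 3 of 15, Tbr1 (0.686), Tbx15 (0.686) and Tbx21 (0.607). Wnt ligands and Frizzled receptors had 5 of 29, led by Wnt6 (1.38), Wnt2b (1.10), Wnt3 (0.941) and Wnt8a (0.721). Homeobox factors outside the Hox clusters had 34 of 121 (28.1%). This set was drawn up by gene symbol after values were seen, and takes in Pax genes such as Pax1. Its members were led by Pou2f3 (1.59), Pou3f2 (1.52), Pax6 (1.43) and Hmx2 (1.25), and 29 of the 34 were CpG-rich. With equal numbers of peaks this set had 15 genes open in replicate 2 alone and 13 in replicate 1 alone, forkhead factors 2 and 1, Sox factors 2 and 2, T-box factors 0 and 1, and Wnt ligands and receptors 3 and 3.

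Protocadherins, cell adhesion proteins of neurons many of them encoded in clusters with similar promoters, had 20 of 67 genes open in replicate 2 alone (29.9%, against 4.95% of all genes), 0 in replicate 1 alone, 13 in both and 34 in neither. The highest signals were 2.08 for Pcdhgb7, 1.79 for Pcdhga11, 1.44 for Pcdhb14 and 1.43 for Pcdhgc4. Sodium channels had 4 of 14, led by Scn4b (1.34) and Scn1a (0.844), and potassium channels 10 of 92, led by Kcnj4 (2.20), Kcnh4 (1.88), Kcnk13 (1.5) and Kcnc4 (1.41). Glutamate receptors had 4 of 26, with Grin2c highest (1.19). With equal numbers of peaks, protocadherins had 8 genes open in replicate 2 alone and 3 in replicate 1 alone, but sodium channels had 1 and 2, potassium channels 5 and 12, and glutamate receptors 2 and 9, the reverse order.

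Interferon-induced genes and interferon regulatory factors, also a set drawn up after values were seen, had 19 of 72 genes open in replicate 2 alone (26.4%, against 4.95% of all genes), 0 in replicate 1 alone, 21 in both and 32 in neither. The highest signals were 2.27 for Ifi35, 1.73 for Ddx58 and 1.72 for Dhx58, both sensors of viral RNA, and 1.72 for Ifitm2, and 16 of the 19 were CpG-poor. With equal numbers of peaks 9 were open in replicate 2 alone and 1 in replicate 1 alone. Interleukins and their receptors had 10 of 77 (13.0%), led by Il22ra1 (1.16), Il23a (0.985), Il17rc (0.976) and Il17b (0.888), and 8 of the 10 were CpG-poor, but with equal numbers of peaks 3 were open in replicate 2 alone and 4 in replicate 1 alone. Aquaporins, the water channels, had 4 of 11, with Aqp1 (1.04), Aqp5 (0.932), Aqp8 (0.625) and Aqp9 (0.589), and with equal numbers of peaks 2 were open in replicate 2 alone and 0 in replicate 1 alone.

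Large families set the scale for these shares. Cytochromes P450 had 9 of 100 genes open in replicate 2 alone (9%), led by Cyp17a1 (1.56), Cyp2f2 (1.41), Cyp4f39 (1.26) and Cyp8b1 (1.23). Solute carriers had 22 of 372 (5.91%), near the share of all genes, with Slc26a10 (2.39), Slc16a11 (2.15), Slc7a7 (1.53) and Slc44a4 (1.46) highest. Zinc finger genes named Zfp had 12 of 385 (3.12%), with Zfp575 (1.53), Zfp933 (1.18), Zfp984 (1.16) and Zfp750 (1.15) highest. Olfactory receptors had 31 of 1128 (2.75%), with 1090 open in neither, and their members had a median signal of 0.352 in replicate 2 and were all CpG-poor. The highest were Olfr557 (0.897), Olfr464 (0.792), Olfr15 (0.748) and Olfr56 (0.721), and 31 of the 34 olfactory receptor genes with a replicate 2 TSS peak had none in replicate 1. Olfr56 shares its peak with the interferon-induced gene Ifi47, whose signal is also 0.721. At equal peak numbers, 0 olfactory receptors were open in replicate 2 alone and 5 in replicate 1 alone, and the counts were 5 and 3 for cytochromes P450, 6 and 25 for solute carriers and 5 and 12 for Zfp genes. Subunits of the proteasome (39 genes) and of respiratory complex I (35 genes) had 0 members, with 37 and 34 open in both.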

How the data were processed

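DNase-seq peaks were taken as deposited, called by the authors in each library separately on mm10, per the labels and the deposited description files. For caller, version, threshold and read depth, no value was given in the sources used here. The peak signal is the authors' deposited value per peak, of unstated scaling. The authors' deposited adjusted p-values list positions below 0.05 only, and the deposited footprints carry a constant p-value of 0.01.

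From these, genes were classed by overlap of at least 1 bp between a peak of the longer list and a window of 1 kb to either side of each TSS of GENCODE M21, with Python 3.11.15, pandas 2.3.3, numpy 2.4.6, scipy 1.17.1 and matplotlib 3.10.9. CpG content was read over 1001 bp of GRCm38.p6. With 1 library on either side no test was made, and exact binomial 95% intervals cover counting error only. The members and lists were chosen with earlier results of these data known, and 3 families (interferon-induced genes, homeobox factors outside the Hox clusters, bHLH factors) were added after values were seen. Of the last of these, bHLH factors, 7 of 30 genes were open in replicate 2 alone (23.3%, against 4.95% of all genes). With equal numbers of peaks 3 were open in replicate 2 alone and 2 in replicate 1 alone.

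Genes named are the 12 members with the highest and the 4 with the lowest signal, the 4 farthest from a replicate 1 peak, all members in the adrenal lists, up to 4 members of each other list described, and the 6 highest of replicate 1 alone. Some genes that this rule names are not reported here. Genes at the edge of the rule were named after their values were seen. The sequence rule was applied to members with a RefSeq entry, off the chromosome left out here. The classing was tested on simulated data. Alternatives changed the peak list, the window, the TSS set, the overlap, the number of peaks and the CpG limits.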

Additional observations from a re-analysis of the deposited data

How the results depend on the processing

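The count of genes open in both stayed within 1.5 times the reported count under 10 of 10 alternatives (9847 to 13438), and the counts for replicate 2 alone (893 to 1190) and replicate 1 alone (155 to 258) under 8 of 10 each. With the shorter replicate 2 list against the longer replicate 1 list, 316 genes were open in replicate 2 alone and 770 in replicate 1 alone, and with equal numbers of peaks 413 and 727, which turns the order round. Fewer replicate 2 peaks enter both settings by construction. The median replicate 2 signal of the members, 0.827 as reported, was 1.44 with the shorter list of both libraries, 1.15 with the shorter replicate 2 list alone and 1.26 with equal numbers of peaks. The CpG-rich share of the members, 21.5% as reported, was 33.5% with the shorter list of both libraries, 24.5% with a window of 500 bp, 17.6% with 2.5 kb and 24.3% with the 5′-most TSS only; the cause was not tested. With the shorter list of both libraries 1079 genes were open in replicate 2 alone, of which 316 are reported members (30.7% of the reported and 29.3% of that set). No replicate could be left out, since each class needs both libraries. No paired analysis was possible because the result comes from no test and each library stands alone. The unknown depth limits what the lack of a peak can show.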
